A study of Mus musculus with 13 samples.

Results

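Wide domains of H3K27me3, the repressive mark that Polycomb repressive complex 2 places on lysine 27 of histone H3, were followed through NSCs (neural stem cells), OPCs (oligodendrocyte precursor cells), and NFOs (newly formed oligodendrocytes). A kept domain was defined as a listed H3K27me3 called peak of OPCs at least 3000 bp wide that shares at least 1 bp with a called peak of NSCs and with a called peak of NFOs. Of 29417 listed OPC peaks, 1025 (3.48%) were wide, and 685 of the wide peaks (66.8%) met the rule. The width in OPCs and the presence of the mark in the other stages therefore chose the members, and both are given only as descriptions. The remaining 340 wide OPC peaks, called other wide peaks below, serve as the comparison. An overlap in NSCs decided membership for nearly all of them, since 686 of the 1025 wide peaks met an NSC peak and 1021 met an NFO peak.

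H3K27me3 and H3K4me3, the mark of active and poised promoters, each have ChIP-Seq samples in the 3 stages. OLIG2, the basic helix-loop-helix factor of the oligodendrocyte lineage, has them in OPCs and NFOs. The paper also reports OLIG2 ChIP-Seq in NSCs, but the series holds no such sample, so OLIG2 in NSCs is not described. OPCs and NFOs came from brains of untreated early postnatal C57BL/6 mice and were purified by immunopanning, OPCs on PDGFRα and NFOs on GalC, after microglia and endothelial cells had been depleted. NSCs were purchased primary cells from the cortex of E14.5 CD-1 embryos by the protocol, whereas the strain field names C57BL/6 for these samples too. No genotype is given for any group. Each stage and target has 1 library, so no value carries an error between animals, no difference between stages was tested, and stage, strain, age, and library cannot be told apart.

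The 3 histone lists titled H3K4me3 held a peak within 2 kb of a transcription start site (TSS) of all 7 housekeeping genes looked up, and those titled H3K27me3 held none. H3K4me3 was listed at 6, 6, and 4 of 6 NSC markers in the NSC, OPC, and NFO lists, at 6, 7, and 6 of 7 OPC markers, and at 2, 2, and 1 of 7 markers of newly formed oligodendrocytes. These markers therefore did not set any of the 3 libraries apart from the others. Of 5 neuron markers, H3K4me3 was listed at 4 in NSCs, at 5 in OPCs, and again at 4 in NFOs, and of 5 microglia markers at 1 in OPCs and at none in the other stages. It was listed at 3, 2, and 1 of 5 astrocyte markers in this order of stages and at 1 of 4 endothelial markers in each. The part of other cells in the results below was not tested. The deposited lists give no read depth, and the numbers of H3K27me3 peaks were 36069, 29417, and 12688 in NSCs, OPCs, and NFOs.

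Polycomb complexes keep genes silent in lineages where they are not used, and their targets in most tissues are the regulators of other cell fates. Wide blocks of the mark are known from the Hox clusters and from genes of the homeobox, Pax, T-box, and forkhead families, often over stretches rich in CpG. A domain that carries H3K4me3 in the same cells is called bivalent. In bulk samples, H3K4me3 and H3K27me3 on the same chromatin and the marks in different cells of the sample cannot be told apart, nor can fewer cells with a mark and less of it per cell.

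A pair of promoters in kept domains is shown to illustrate how their CpG content ranges. Hoxa11, in a HoxA domain of 37549 bp, has a RefSeq promoter (GRCm38.p6) that overlapped H3K4me3 in every stage. Nhlh2, a neuronal bHLH factor, lay in a domain of 8133 bp with H3K4me3 in no stage, the widest such domain with a matched promoter, while those at Pitx1 (8667 bp) and Hand1 (8631 bp) were wider. The 180 bases that end 70 bases before the RefSeq start are given on the strand of the gene with CpG in capitals, 10 in Hoxa11 and 2 in Nhlh2. The Hoxa11 stretch overlaps exons of the antisense lncRNA Hoxa11os.
Hoxa11 (chr6:52245881-52246060, minus strand): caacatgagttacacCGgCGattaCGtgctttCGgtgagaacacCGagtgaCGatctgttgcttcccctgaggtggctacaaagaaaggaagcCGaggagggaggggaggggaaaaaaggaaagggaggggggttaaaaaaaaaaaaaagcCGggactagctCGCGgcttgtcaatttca
Nhlh2 (chr3:102009895-102010074, plus strand): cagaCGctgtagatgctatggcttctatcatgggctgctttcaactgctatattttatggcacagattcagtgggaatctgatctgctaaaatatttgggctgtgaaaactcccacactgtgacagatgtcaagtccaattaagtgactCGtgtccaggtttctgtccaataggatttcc

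The Hox clusters held most of the microRNAs in kept domains, which are shown because their seeds fall into families. Of 1005 mouse hairpins in the RefSeq table (GRCm38.p6), 6 lay in kept domains (0.597%), and 5 of these were between the outer genes of a Hox cluster. In the mature forms below the seed, bases 2 to 8, is in capitals, and each pair shares its seed. Mir10a lay in a domain of 5112 bp at Hoxb4 and Mir10b in 9366 bp at Hoxd4. Mir196b lay in the HoxA domain of 37549 bp, Mir196a-2 in the HoxC domain of 35528 bp, and Mir196a-1 in 5666 bp of HoxB.
mmu-miR-10a-5p (chr11:96317186-96317208, plus strand): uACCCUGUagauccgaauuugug
mmu-miR-10b-5p (chr2:74726074-74726096, plus strand): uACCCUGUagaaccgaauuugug
mmu-miR-196a-5p (chr15:102973365-102973386, plus strand): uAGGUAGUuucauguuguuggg
mmu-miR-196b-5p (chr6:52230129-52230150, minus strand): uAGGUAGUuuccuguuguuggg

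The kept domains added up to 5.12 Mb. Their width in OPCs ranged from 3001 bp to 53817 bp with a median of 5531 bp (95% interval of the median 5208 to 5883 bp). The lower quartile was 4071 bp, 391 (57.1%) reached 5 kb, 139 (20.3%) reached 10 kb, and 24 reached 20 kb. Neighbours were common, and joining members within 10 kb of each other left 460 separate loci. Chromosome 2 held the most members (74), followed by chromosomes 5 (55), 13 (51), and 11 (49), and chromosomes 16 and X held 6 each. Relative to chromosome length, chromosome 19 held the most, followed by chromosomes 13, 2, and 11. Just inside the width threshold stood a domain of 3001 bp at Car4, a carbonic anhydrase gene, and one of 3002 bp that lay 7062 bp from the nearest TSS of Six2. Just outside stood peaks of 2987 bp at Arhgap27 and of 2986 bp near Ebf3.

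Most of the widest domains lay over developmental regulators. In the HoxC cluster, which patterns the body axis, a domain of 44928 bp at chr15:102999660-103044587 (mm10) covered start sites of Hoxc4, Hoxc5, and Hoxc6, and another of 35528 bp covered Hoxc9, Hoxc10, and Hoxc11. In the HoxA cluster, 44854 bp at chr6:52176319-52221172 covered Hoxa3 to Hoxa7, and 37549 bp covered Hoxa9, Hoxa10, and Hoxa11. Other members among the 10 widest lay over Tbx15 (32873 bp), a T-box factor of skeleton and skin, and the lncRNA Hand2os1 beside the heart factor gene Hand2 (28475 bp). They also included Barhl2 (27521 bp), a homeobox factor of retinal and spinal neurons, and Zic4 (25470 bp), a zinc finger factor of the cerebellum. The widest of all, 53817 bp at chr8:123537410-123591226, held no TSS, and 81.2% of its bases were soft-masked as repeats.

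Start sites of protein-coding genes or lncRNAs lay inside 321 kept domains (46.9%, exact binomial 95% interval 43.1 to 50.7%), against 36.8% of all 1025 wide OPC peaks and 16.5% of the other wide peaks (12.7 to 20.8%). A further 224 domains lay in gene bodies and 140 between genes. Those without a TSS were a median of 4073 bp from the nearest one, and 244 of 364 lay within 10 kb. In all, 273 protein-coding genes (1.24% of 21951) and 153 lncRNAs (1.14% of 13374) had a TSS inside a kept domain, and 27 domains held several coding genes. The share with a coding TSS was higher in wider domains, at 26.2% of those from 3 to 5 kb, 36.1% from 5 to 10 kb, and 62.6% from 10 kb. In the other wide peaks it was 10.6% and 15.6% in the first 2 of these width classes, so the gap between members and other wide peaks was also present at like widths.

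Transcription factor genes filled much of this set. On 10 lists of factor families, 142 of 422 genes (33.6%) had a TSS in a kept domain, where 1.24% of all protein-coding genes did, and these 142 genes were 52.0% of the 273 covered coding genes. They lay in 137 domains (20.0% of members, 17.1 to 23.2%), while 10 of the 340 other wide peaks (2.94%, 1.42 to 5.34%) held a listed factor. Domains with a listed factor had a median width of 9861 bp (8859 to 11206 bp), and the 548 without one had a median of 5041 bp (4774 to 5283 bp). Among the 10, 20, 50, and 100 widest members, 8, 15, 29, and 53 held a listed factor. The intervals cover counting error only, and neighbouring genes share a domain.

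Hox genes, which give segments their identity along the body axis, led the lists with 34 of 39 genes in 19 domains. Pax genes followed with 7 of 9, namely Pax1, Pax2, Pax3, Pax5, Pax6, Pax7, and Pax9, which act in muscle, kidney, blood, eye, and neural tube. GATA factors of blood, heart, and gut had 4 of 6 genes covered, and T-box factors of limb, heart, and cortex 9 of 17. Of the homeobox genes outside the Hox clusters, 58 of 167 were covered, with Barhl2, Dlx6 (25375 bp), Isl1 (23527 bp), and Shox2 (19375 bp) among those in wide domains. The share was lower for bHLH factors (15 of 62, among them Twist1, Olig3, Neurod2, Tal1, and Neurod1), forkhead factors (8 of 44, among them Foxa1 and Foxb1), and Sox factors (3 of 20, namely Sox7, Sox14, and Sox17). Nuclear receptors had 2 of 47 genes covered (Nr5a2 and Nr2f2), and Zic and Gli genes 2 of 11 (Zic1 and Zic4).

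**Figure D1:**
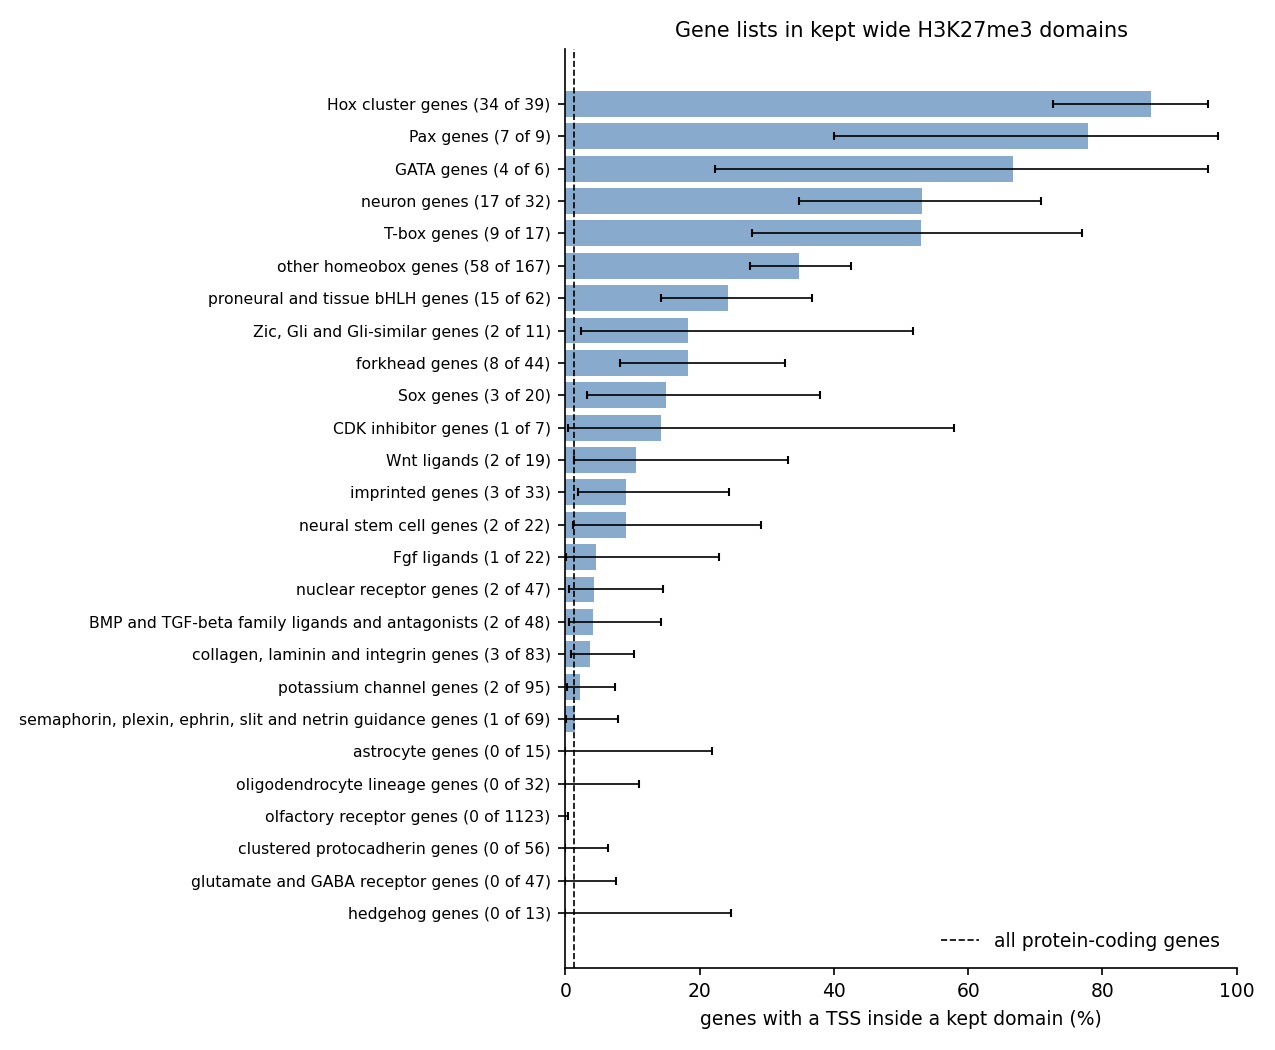
Share of the genes of each of 26 lists with a TSS inside a kept domain, in percent, with exact binomial 95% intervals as error bars; the dashed line marks all protein-coding genes (1.24%). Hox (34 of 39), Pax (7 of 9), and GATA genes (4 of 6) stand highest, and 6 lists, among them the oligodendrocyte lineage and astrocyte lists, have no covered gene.

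Few genes of signalling and of cell structure were covered, in some lists more than the 1.24% of all coding genes would give. Wnt1 and Wnt8b were the covered genes of 19 Wnt ligands, Bmp4 and Fst of 48 genes of the BMP and TGF-beta families, and Fgf4 of 22 Fgf ligands, where the share of all coding genes would give 0.236, 0.597, and 0.274 genes. Of 13 hedgehog genes, 47 glutamate and GABA receptor genes, 56 clustered protocadherin genes, and 1123 olfactory receptor genes none was covered. At the share of all protein-coding genes these lists would have held 0.162, 0.585, 0.696, and 14.0 genes, so a count of 0 was low only for the last. Among 69 axon guidance genes Efna5 was covered (18044 bp), where that share would give 0.858, among 95 potassium channel genes Kcnc4 and Kcnh3, and among 83 collagen, laminin, and integrin genes Col2a1, Col14a1, and Col27a1. Cdkn2a, the locus of the cell cycle inhibitors p16 and p19, lay in a domain of 23311 bp that NSC peaks covered to 94.5% and NFO peaks to 93.2%, the only covered gene of 7 CDK inhibitor genes. Of 33 imprinted genes 3 were covered, namely Igf2, Grb10, and Dlx5.

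Cell type lists differed in their counts. No gene of 32 oligodendrocyte lineage genes was covered (a count of 0 allows up to 9.38%), and none of 15 astrocyte genes (up to 20.0%), but at the share of all coding genes these lists would have held only 0.398 and 0.187 genes. Among the lineage genes, Tcf7l2, a Wnt effector of differentiating oligodendrocytes, lay in an other wide peak. By contrast 17 of 32 neuron genes were covered, where the share of all coding genes would give 0.398. Of the 32, 18 are also on the transcription factor lists, and 14 of these 18 were covered. Of the covered genes, 3 were not on those lists. They were Slc17a6 (13978 bp), the vesicular glutamate transporter, Slc32a1 (9795 bp), the vesicular GABA transporter, and Gad2 (3053 bp), an enzyme of GABA synthesis. None of the 5 neuron markers looked up for H3K4me3 was covered. The covered neuronal factors included Dlx1, Dlx5, Dlx6, Isl1, Lhx1, Lhx5, Pou4f1, Neurod1, Neurod2, Neurog1, Tbr1, and Eomes. Of 22 NSC genes, Pax6 and Tfap2c were covered. Families noticed after the values were seen were Prdm (6 of 14 genes), Tfap2 (4 of 5), and Sp (3 of 9, namely Sp6, Sp8, and Sp9).

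The Hox clusters could be read gene by gene. Members overlapped the HoxA cluster in 4 domains, HoxB in 10, HoxC in 5, and HoxD in 7. NSC peaks covered 97.2% of the span between the outer HoxA genes, OPC peaks 95.5%, and NFO peaks 93.3%, and the corresponding shares were 96.2%, 94.8%, and 89.5% for HoxC and 94.3%, 92.3%, and 82.9% for HoxD. HoxB was covered less, at 69.3%, 72.5%, and 65.2%. In each cluster the covered share was lower in NFOs than in NSCs. The number of listed pieces was higher, with 2, 4, and 7 called peaks over HoxA in NSCs, OPCs, and NFOs, and 4, 9, and 15 over HoxD. The NSC list holds no gap as short as those of the other lists, as given with the widths, and its part in these numbers was not tested. Hoxa13, Hoxb13, Hoxc13, and Hoxd13, which lie at the ends of their clusters, were not covered. These 4 had an NSC H3K27me3 peak over a TSS and no OPC peak there. H3K4me3 within 2 kb of a TSS was listed for 9, 6, and 5 of 11 HoxA genes (NSCs, OPCs, and NFOs in turn), for 7, 6, and 7 of 10 HoxB genes, for 5, 3, and 5 of 9 HoxC genes, and for 8, 5, and 6 of 9 HoxD genes.

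**Figure D2:**
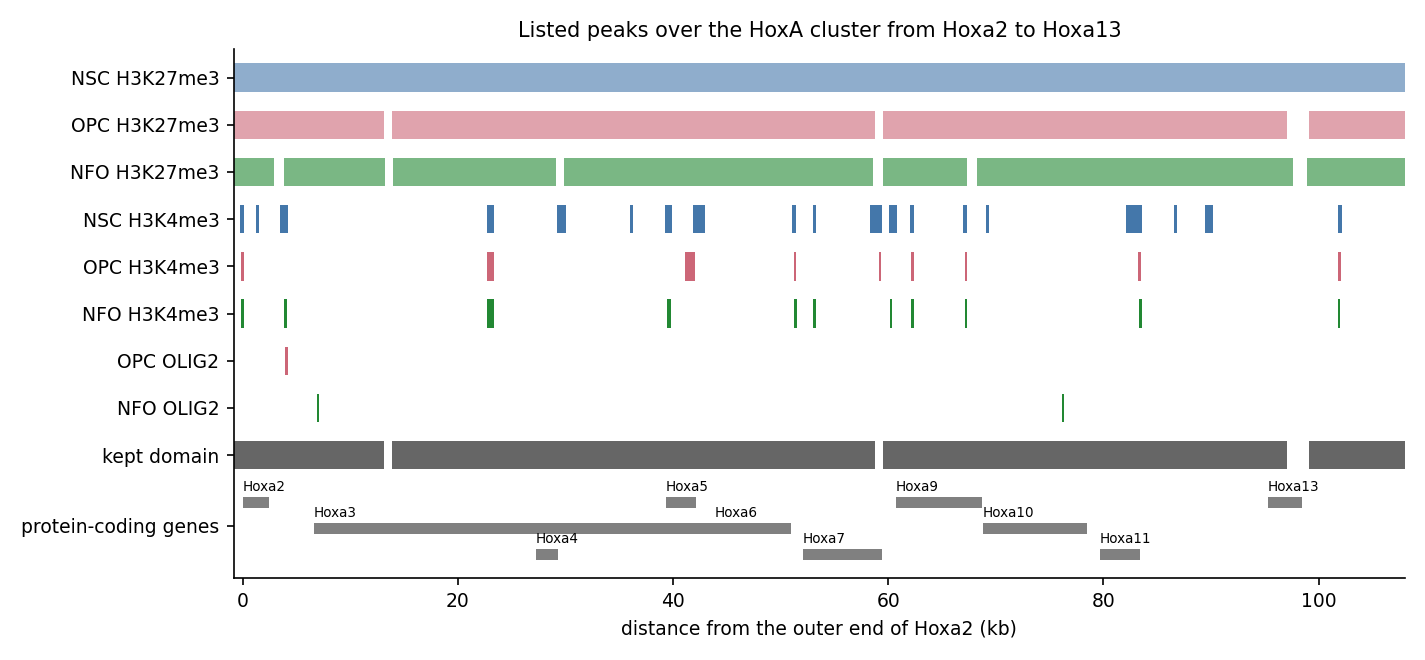
Listed peaks over the HoxA cluster from Hoxa2 to Hoxa13, drawn to scale as distance in kb from the outer end of Hoxa2, with a row for each stage and target, the kept domains in dark grey, and gene spans in grey below. The H3K27me3 block is unbroken in NSCs, whose list holds no gap below 1097 bp, and split by short gaps in OPCs and NFOs. Short H3K4me3 peaks stand inside it in every stage.

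Within the members the mark was kept to very different extents in NSCs and to more even extents in NFOs. NSC peaks covered a median of 75.6% of a domain (69.7 to 80.3%) and NFO peaks a median of 82.9% (80.6 to 84.6%). In NSCs 249 domains were covered to at least 90%, and 83 were covered to less than 10%. In NFOs these numbers were 234 and 3. Full cover was listed for 178 domains in NSCs and 79 in NFOs. The NSC distribution therefore had members at both ends, and 87 domains were met in NSCs only by peaks narrower than 500 bp, against 7 in NFOs.

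**Figure D3:**
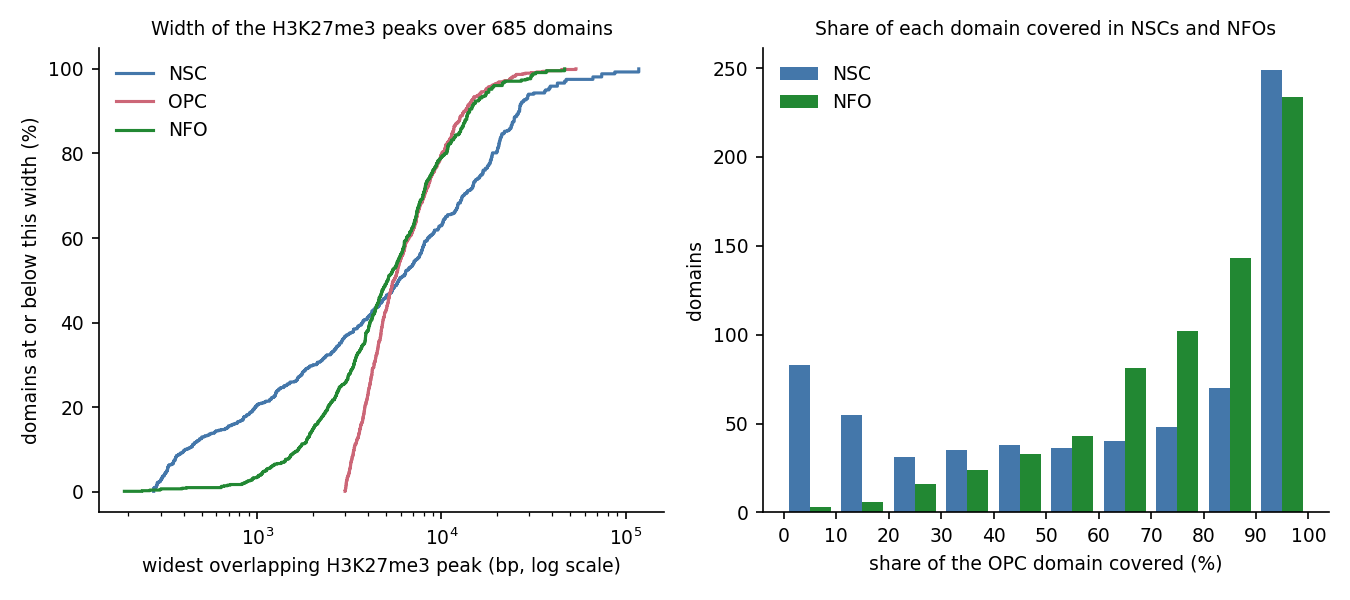
Left, cumulative share of the 685 domains against the width of the widest overlapping H3K27me3 peak on a log axis, by stage; right, number of domains by the share of the OPC domain that peaks of NSCs and NFOs cover. NSC widths run from below 500 bp (87 domains) to 117916 bp, and 83 domains are covered to less than 10% in NSCs, against 3 in NFOs.

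The widest NSC peak over a domain had a median of 5846 bp (5019 to 7014 bp) and the widest NFO peak one of 5118 bp (4656 to 5718 bp), beside the 5531 bp of OPCs. The greatest widths were 117916 bp for NSCs, 53817 bp for OPCs, and 46698 bp for NFOs. Peak widths were not on a common scale. The smallest gap between neighbouring peaks was 1097 bp in the NSC list but 685 bp and 713 bp in the OPC and NFO lists. When listed peaks were joined across gaps up to 1000 bp, the medians became 5846, 9210, and 7651 bp, which turned the order of NSCs against both OPCs and NFOs. A domain met a median of 1 peak in NSCs and 2 peaks in NFOs, and 107 NSC peaks and 65 NFO peaks each spanned several members. The highest fold enrichment over the control among the peaks on a domain had medians of 4.76 in NSCs and 5.14 in NFOs. The single OPC peak of each domain had a median of 5.58.

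Named members show the range. The HoxA domains of 44854 and 37549 bp and the HoxC domain of 35528 bp were covered to 100% in NSCs and to 97.7%, 97.5%, and 86.5% in NFOs. Pax3 (24447 bp), a neural crest and muscle factor, was covered to 100% in NSCs and 89.99% in NFOs. At the other end stood Pax6, the cortical progenitor and eye factor, whose domain of 11691 bp at chr2:105661433-105673123 shared 15 bp (0.128%) with an NSC peak and was covered to 64.4% in NFOs. A domain of 3207 bp near the lncRNA Gm38604 was covered to 0.530% in NSCs, and Tfap2d (7299 bp) to 1.38% in NSCs and 100% in NFOs. Zic1 (7851 bp) was covered to 1.80% in NSCs and 100% in NFOs, and Zic4 (25470 bp) to 13.3% and 99.98%. Tbx3 (23950 bp), a limb and heart factor, was covered to 21.6% in NSCs and 85.9% in NFOs. Such members were met in NSCs but were not covered there as wide domains.

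The smallest cover in NFOs was listed for a domain of 4084 bp near Lrp2, an endocytic receptor gene, at 4.65%, for Col14a1 (4002 bp), a fibril-associated collagen, at 6.05%, and for a domain of 3047 bp near Gm27199 at 7.78%. In NSCs these were covered to 12.2%, 34.9%, and 100%. All 3 were narrower than the median width of the members (5531 bp).

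Domains were also grouped by their cover in NSCs, a value of the kind that chose the members, so the shares by group are a description. A listed transcription factor was present in 6 of 83 domains covered to less than 10% (7.23%), 13 of 159 covered to 10 to 50% (8.18%), 32 of 194 covered to 50 to 90% (16.5%), and 86 of 249 covered to at least 90% (34.5%). The median number of CpG dinucleotides per kb was 15.1, 15.1, 21.4, and 25.03 in this order, and H3K4me3 was listed in NSCs in 48.2%, 60.4%, 74.2%, and 86.3%. Widths differed as well, with medians of 5196, 4478, 6322, and 7192 bp, and the part of width in these shares was not tested.

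**Figure D4:**
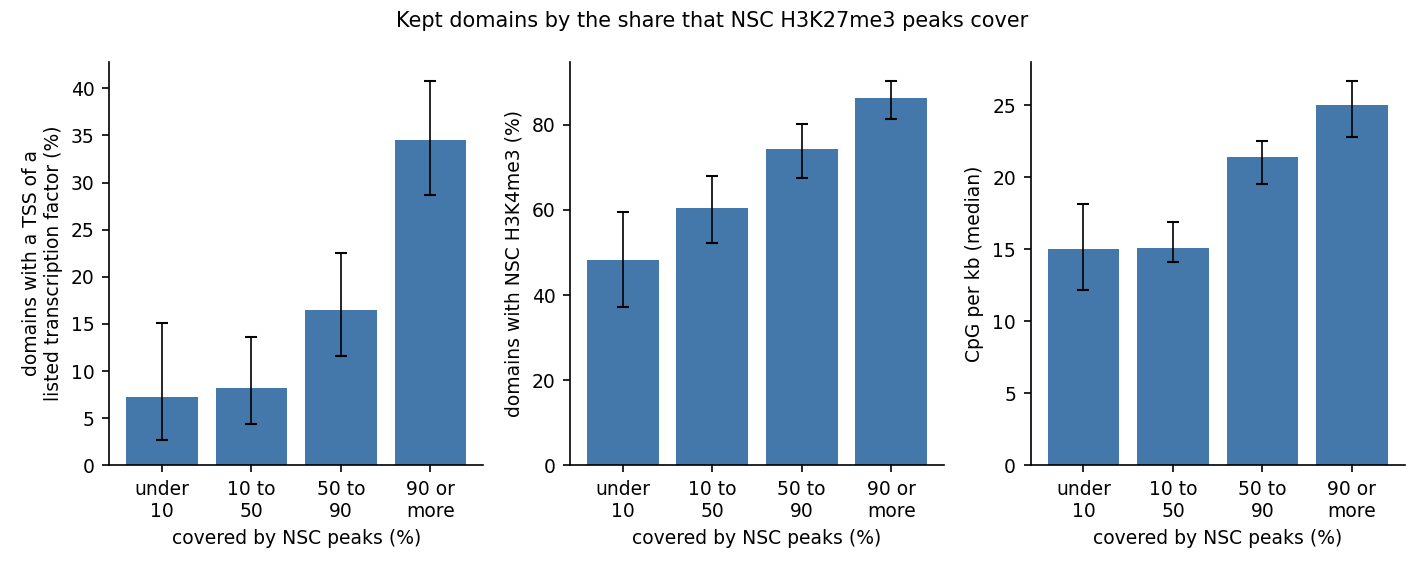
Kept domains in 4 groups by the share that NSC H3K27me3 peaks cover (83, 159, 194, and 249 domains), with the percentage that hold a listed transcription factor, the percentage with NSC H3K4me3, and the median CpG number per kb; error bars are exact 95% intervals. All 3 measures are highest in the group covered to at least 90%, at 34.5%, 86.3%, and 25.03 CpG per kb.

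NSC H3K4me3 peaks stood inside 495 kept domains (72.3%, 68.7 to 75.6%), OPC peaks inside 325 (47.4%, 43.7 to 51.3%), and NFO peaks inside 391 (57.1%, 53.3 to 60.8%). Over all 1025 wide OPC peaks the shares were 55.6%, 37.4%, and 45.4%, and in the other wide peaks they were 22.1%, 17.1%, and 21.8%. H3K4me3 was not used by the rule, and in every stage the share was higher in members than in the other wide peaks. The intervals treat each domain as separate, although neighbouring members can lie in a shared locus, and the difference was not tested. The H3K4me3 lists held 33292, 18284, and 21736 peaks in NSCs, OPCs, and NFOs, so the order of the stages is not corrected for the length of the lists. At widths of 3 to 5 kb the shares were 62.2%, 36.1%, and 43.2% for members and 21.2%, 14.4%, and 17.4% for other wide peaks. At 5 to 10 kb they were 75.4%, 49.2%, and 60.7% against 25%, 24.0%, and 32.3%. The gap between members and other wide peaks was present in both width classes, and only 8 other wide peaks reached 10 kb.

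**Figure D5:**
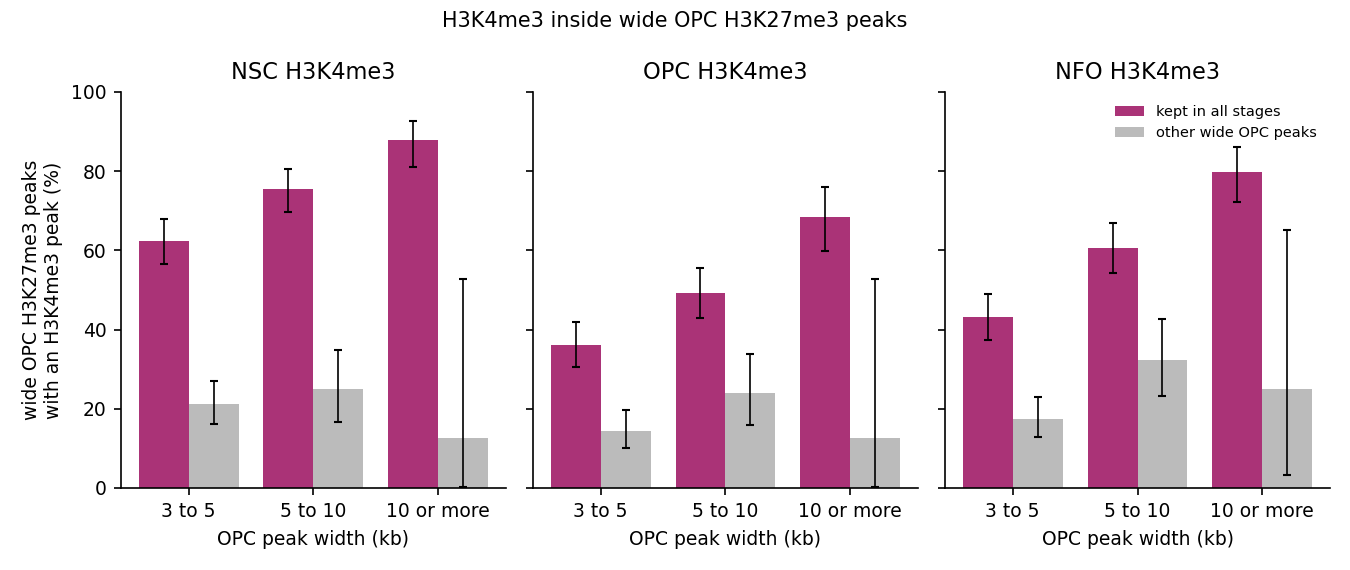
Percentage of wide OPC H3K27me3 peaks with an H3K4me3 peak inside, by stage and by OPC width in kb, for kept domains (purple) and other wide peaks (grey); error bars are exact binomial 95% intervals. Kept domains stand higher at each width, reaching 87.8% in NSCs, 68.3% in OPCs, and 79.9% in NFOs at 10 kb or more, where the grey bars rest on 8 peaks.

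The H3K4me3 inside a domain was narrow. Where present, NSC peaks took a median of 1021 bp (13.8% of the domain), OPC peaks 591 bp (7.55%), and NFO peaks 384 bp (5.41%). Of the H3K4me3 bases in members, 82.8% lay under an H3K27me3 peak of the same stage in NSCs and 95.5% in NFOs, where the remaining bases of the members were covered to 67.1% and 81.1%. In NSCs and NFOs the called peaks of the marks thus overlapped in their positions. In OPCs the share is 100% by the rule and cannot show this. OPC H3K4me3 peaks covered a mean of 5.43% of the middle of the domains, 5.91% of their outer parts, and 5.73% of the flanks. The corresponding means were 13.9%, 14.7%, and 12.3% in NSCs and 4.78%, 4.93%, and 2.19% in NFOs.

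Across the stages, 250 domains (36.5%) held H3K4me3 in all 3 stages, 144 (21.02%) in none, 107 in NSCs and NFOs, 86 in NSCs alone, 52 in NSCs and OPCs, 23 in NFOs alone, 12 in OPCs alone, and 11 in OPCs and NFOs. The widest with H3K4me3 in every stage were the 4 Hox domains named above and Tbx15. At Tbx15 the NSC, OPC, and NFO peaks took 4524, 1971, and 3521 bp. The HoxC domain at Hoxc4 held 1958, 419, and 412 bp, and the HoxA domain at Hoxa3 held 4652, 1755, and 1486 bp. Domains with the mark in all stages had a median width of 7409 bp, 24.98 CpG per kb, a coding TSS in 54.8%, and a listed factor in 33.2%. Domains with none had 4442 bp, 12.8 CpG per kb, a coding TSS in 14.6%, and a listed factor in 4.86%. The median H3K27me3 fold enrichment in OPCs was 6.43 in the former and 4.57 in the latter. An overlap of 1 bp is met more easily by a wide domain, so the difference in width is in part set by how the groups were made, and its part in the other measures was not tested.

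The widest members without H3K4me3 lay away from coding start sites. They measured 15504 bp at 289 bp from the start of Wt1os, 14590 bp at 153930 bp from Mir124-2hg, 14538 bp at 46557 bp from Pax3, 14400 bp at 29450 bp from Prdm16, and 13119 bp at 14942 bp from Gm45003. NSC peaks covered 90.4%, 3.76%, 64.6%, 11.5%, and 7.73% of them and NFO peaks 69.1% to 94.4%. The widest with the mark in a single stage were 18868 bp near Gm44102 and 15737 bp near Gm30340, both in NFOs, 15020 bp near Tfap2b in NSCs, 13644 bp near Gm42996 in OPCs, and 12013 bp at Pax5, the B cell factor, in NSCs. At Pax5 the NSC peaks took 2211 bp with a highest fold enrichment of 3.85, and in the other 4 the mark took 184 to 1262 bp.

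Around the start sites of the covered genes, H3K4me3 within 2 kb was listed by NSCs for 236 of 273 coding genes (86.4%), by OPCs for 185 (67.8%), and by NFOs for 172 (63.0%). Among all 21951 coding genes it was listed for 64.3%, 60.7%, and 43.6%. The share was higher for the covered genes in each list. Members without any TSS also held H3K4me3, in 61.3%, 34.3%, and 46.4% of 364 domains, against 84.7%, 62.3%, and 69.2% of the 321 with a TSS. Slc17a6 and Slc32a1 carried no NSC peak near a TSS and carried an OPC peak, Tbr1 carried the mark in NSCs and NFOs, and Neurod1, Neurod2, and Neurog1 in NSCs alone.

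The sequence of the members was rich in CpG. Their median GC content was 47.2%, with 20.9 CpG per kb and an observed to expected CpG ratio of 0.375. Other wide peaks had medians of 44.4%, 11.7, and 0.229, flanking sequence of the members 46.8%, 16.6, and 0.306, and the genome 41.7%, 8.26, and 0.190. In the 300 bases from 250 before to 50 after the start of each gene, the covered coding genes had a median of 16 CpG and all coding genes 11. A ratio of at least 0.6 was reached by 60.4% of the 273 covered genes (54.4 to 66.3%) and 44.4% of all coding genes. By these medians the members stood above other wide peaks and above their own flanks in CpG, but the mean over position bins was 22.8 CpG per kb in the middle of the domains, 21.1 in their outer parts, and 21.9 in the flanks, so the order against the flanks depends on the summary.

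OLIG2 called peaks were found in a small part of the members. In OPCs 43 of 7384 listed OLIG2 peaks lay in 42 kept domains (6.13%, 4.45 to 8.20%), and 5.46% of all wide OPC peaks held one. In NFOs 76 of 16911 lay in 69 domains (10.1%, 7.92 to 12.6%), against 8.88% of all wide peaks. The members' shares were close to the background, and per Mb the members held 8.40 peaks in OPCs and 14.8 in NFOs, other wide peaks 8.83 and 14.51, and the genome 2.79 and 6.39. Wide H3K27me3 peaks thus held more OLIG2 peaks per Mb than the genome whether they were kept or not. Either cell type had a peak in 97 domains, and 14 held a peak in both.

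OLIG2 peaks in the members stood on H3K4me3 more often than OLIG2 peaks did in general. An H3K4me3 peak of the same cell type met 24 of the 43 OLIG2 peaks in OPCs (55.8%, 39.9 to 70.9%) and 47 of the 76 in NFOs (61.8%, 49.98 to 72.8%), against 12.6% and 8.23% of all listed OLIG2 peaks. A TSS lay within 1 kb of 14 and 20 of these peaks. The median fold enrichment was 8.94 in OPCs and 9.65 in NFOs, where all listed peaks had 8.03 and 8.12. Members with H3K4me3 in all stages (median width 7409 bp) held an NFO OLIG2 peak in 14.8% of 250, and those with none (4442 bp) in 4.86% of 144. The share with an NFO peak was 6.12%, 11.1%, and 16.5% at widths of 3 to 5 kb, 5 to 10 kb, and from 10 kb, and the part of width in the former difference was not tested.

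In each cell type 10 OLIG2 peaks of the members overlapped a peak of the other, of 43 in OPCs and 76 in NFOs, and they included the 2 strongest of each. A peak 4882 bp from the TSS of Foxd3, a neural crest factor, had a fold enrichment of 46.0 in OPCs and 41.4 in NFOs in a domain of 3168 bp. One at Map2k6, a kinase of the p38 pathway, had 41.1 and 46.7. Overlapping peaks were also listed at Sfmbt2, a Polycomb group gene (6.01 in OPCs and 28.1 in NFOs), near Neurog2, a proneural factor (9.38 and 20.4), at Ebf2 (10.8 and 16.6), near Gm37626 (12.004 and 24.0), AI606473 (19.9 and 19.6), Mbnl3 (19.7 and 11.6), Pxmp4 (8.60 and 10.6), and Casz1 (9.77 and 3.42). The NFO peak near Casz1, with a fold enrichment of 3.42, did not pass the authors' filter. With 1 library in each cell type, a pair does not replicate either value.

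Other strong peaks were listed in a single cell type. In OPCs they lay at Gm30074 (23.5), in a domain nearest to Nkx6-1 (15.4), at Tfap2a (12.1), Hoxc9 (11.8), and Esrp1 (11.3). In NFOs they lay near 1500005C15Rik (18.6), at Zic1 (18.6), and near Hoxc5 (16.1). Hox domains held peaks of both kinds, and in the HoxA block 1 OPC peak and 2 NFO peaks were listed at separate positions. The weaker of these 2 NFO peaks, with a fold enrichment of 3.54, did not pass the authors' filter.

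Windows of 101 bases centred on the summit were read under the OLIG2 peaks. OLIG2 binds the E-box CANNTG, a palindrome on both strands, which was present in 13 of 43 windows of OPC peaks in members (30.2%, 17.2 to 46.1%) and in 44.9% of the windows of all listed OPC peaks. In NFOs it was present in 26 of 76 (34.2%, 23.7 to 46.0%) and in 42.2% of all. The form CAGCTG, contained in the former, was found in 2 of 43 and 4 of 76 windows, against 7.30% and 5.09% of all. The E-box was thus not more frequent under the peaks of members, and the median GC content of the windows was 51.5% in members and 44.6% overall in OPCs. Of the 10 overlapping pairs, 4 had an E-box in the OPC window. The 4 windows below, from shared peaks and chosen after their sequences were seen to show windows with and without one, are on the plus strand with E-boxes in capitals, and those of the shared peaks at Sfmbt2, Gm37626, and Mbnl3 hold none. That at Map2k6 holds none and lies in the first exon of a non-coding transcript, that near AI606473 holds CAGCTG, and the other two hold CAGATG and CATATG.
OPC peak near Foxd3 (chr4:99661131-99661231): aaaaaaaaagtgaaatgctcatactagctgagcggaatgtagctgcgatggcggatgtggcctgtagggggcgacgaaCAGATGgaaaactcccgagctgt
OPC peak at Map2k6 (chr11:110479140-110479240): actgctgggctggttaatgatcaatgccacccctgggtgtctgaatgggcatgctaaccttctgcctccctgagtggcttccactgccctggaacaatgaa
OPC peak near AI606473 (chr3:154381616-154381716): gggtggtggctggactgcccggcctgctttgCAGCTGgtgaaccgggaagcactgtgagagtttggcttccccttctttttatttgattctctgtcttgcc
NFO peak near Neurog2 (chr3:127626086-127626186): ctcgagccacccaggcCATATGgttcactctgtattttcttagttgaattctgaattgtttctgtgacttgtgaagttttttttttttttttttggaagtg

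A few members stood apart in repeats. Of 682 members on assembled chromosomes 11 had most of their bases soft-masked as repeats, and 3 more lay on an unplaced scaffold. In a block on chromosome 8, domains of 53817, 6059, and 25155 bp were covered by NSC H3K4me3 peaks to 86.7%, 89.2%, and 92.8%, by OPC peaks to 1.83%, 14.1%, and 7.15%, and by no NFO peak. Another 6, the 3 on the unplaced scaffold and 3 at the start of chromosome 9, carried H3K4me3 in all stages. Their median H3K27me3 fold enrichments were 1.41, 1.86, and 3.65 in NSCs, OPCs, and NFOs, where all members had 4.76, 5.58, and 5.14. Without these 14, NSC H3K4me3 inside the members fell from 777 to 655 kb, and the share of domains with H3K4me3 was 72.4%, 46.9%, and 57.1% in NSCs, OPCs, and NFOs. The other values given above were not recomputed without them, apart from the shares with a TSS or an OLIG2 peak, the median cover, and the median widths.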

How the data were processed

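ChIP-Seq peak lists of H3K27me3 and H3K4me3 in NSCs, OPCs, and NFOs (6 libraries) and of OLIG2 in OPCs and NFOs (2 libraries) were used, with 1 library per stage and target, grouped by the titles of the samples. The antibody field of the labels names the other histone mark than the titles, and the titles were followed. The authors mapped reads to mm10 (GRCm38) with Bowtie2 and called broad histone peaks with MACS2 and OLIG2 peaks with SPP. The deposited lists give each peak's fold enrichment, a ratio over the control, and the −log10 of its FDR, both from the authors' callers. The names in the lists show single-end NSC reads and paired-end reads in the other stages. The RIP-Seq lists of the authors, for OLIG2 and an IgG control, give an RPKM for each transcript that is the same in both lists where a transcript is in both, and no result from them is given. Read depth is not given, so intervals (exact Clopper-Pearson for shares, order statistics for medians, 95%) cover counting error only. TSSs of every transcript of protein-coding genes and lncRNAs came from GENCODE M21. All listed peaks were used, any overlap of 1 bp counted, and coordinates are 1-based. Promoter and microRNA sequences came from RefSeq (GRCm38.p6) and windows from that genome. The overlap rule was checked on simulated peaks. With 1 library per stage no test was made. Members, gene lists, and named genes (the widest members, the widest in each list and H3K4me3 class, the extremes of cover and of the threshold, and those with the strongest OLIG2 peaks) were chosen with earlier results of these data known. Alternatives were filters on FDR and fold enrichment, widths of 2000 and 5000 bp, larger overlaps, joined peaks, and other TSS sets. Input libraries were not analysed here. Python 3.11.15, NumPy 2.4.6, SciPy 1.17.1, and Matplotlib 3.10.9 were used. Some genes are not reported here.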

Additional observations from a re-analysis of the deposited data

How the results depend on the processing

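The number of members, their shares with H3K4me3, OLIG2, and a TSS, their cover, and the widest peaks were recomputed under alternatives, which gave 42 values in all. Of these, 24 stayed within the interval of the reported value or within 1.5 times the count. The gene lists, sequence measures, and Hox clusters were not recomputed. Members numbered 391 at a minimum width of 5000 bp and 418 when NSC and NFO peaks had to cover 50% of the domain. The shares with H3K4me3 in NSCs, OPCs, and NFOs were 79.8%, 56.01%, and 67.5% at 5000 bp, and 66.7%, 40.9%, and 48.3% with an overlap of 200 bp. With H3K4me3 peaks filtered on FDR and fold enrichment they were 65.5% in NSCs and 51.4% in NFOs, and with members from filtered H3K27me3 peaks 78.0% and 61.6%. At 5000 bp, an NFO OLIG2 peak was in 13.04% and a TSS in 56.8%. A TSS was in 37.2% with coding genes alone and in 39.0% with 1 TSS per gene. Joining peaks across gaps up to 1000 bp moved the OPC median width to 9210 bp and the NFO median to 7651 bp and left the NSC median at 5846 bp, because no gap in that list is that short. Leaving out members rich in repeats, chosen after seeing the data, moved none of the 12 values recomputed that way beyond its interval or 1.5 times the count. No paired analysis was possible because each stage and target has 1 library. Read depth, peak height in reads, and the error between animals are unknown, which limits every comparison between stages.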
